A study of Mus musculus with 2 samples.

Results

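Tdh, Gcat, Gldc, Shmt1, Shmt2, Mthfd1, Mthfd1l, Mthfd2, Phgdh and Psat1 encode enzymes of threonine, glycine, serine and folate-bound carbon metabolism. They are defined by name from the biochemistry of the pathway, in a list drawn up with earlier results of these data known, and all 10 were found among the 17408 genes of the table. Threonine dehydrogenase (Tdh) oxidizes threonine in mitochondria and Gcat splits its product into glycine and acetyl-CoA, while the glycine cleavage system, of which Gldc is the decarboxylase, passes a carbon of glycine to folate. Phgdh and Psat1 make serine from a glycolytic intermediate, the Shmt enzymes turn serine into glycine and load folate with a carbon, and the Mthfd enzymes carry that carbon between oxidation states for the synthesis of purines and thymidylate. Mouse embryonic stem cells are known for their dependence on threonine, which is tied to high threonine dehydrogenase activity.

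The cells were mouse embryonic fibroblasts (MEFs) carrying STEMCCA, a doxycycline-inducible cassette of reprogramming factors, taken 16 days into reprogramming, in stem cell medium with serum, LIF and ascorbic acid. RNA of single cells was captured in droplets by its 3' end (10x Genomics, version 2 chemistry), and the cells were not sorted. The labels put both libraries in a single group. Per the study, its 10x data came from 2 separate STEMCCA mouse systems. Neither library is tied to a system by its labels, nor are separate cultures stated. A p-value here rests on the spread between these libraries within clusters, pooled over clusters, after their overall difference is removed. That spread may be only technical. Library 1 had 3109 cells with a median of 15625 UMIs (unique molecular identifiers, 1 for each captured RNA molecule) and library 2 had 3914 cells with a median of 14292 UMIs, and 12 cell barcodes occurred in both.

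With no other condition in the series, the comparison was between cell states. Cells were clustered on genes other than these enzymes and the wider pathway, which gave 15 clusters, of which 11 had at least 30 cells in each library and held 6879 of the 7023 cells. Cluster 6, with 146 and 392 cells in libraries 1 and 2, was pluripotent-like: 14 of its 15 pluripotency markers were at least 2-fold above the other cells, and Dppa5a, Utf1 and Zfp42 led it. Clusters 1 and 5 were cycling, with both S phase and G2 and M phase markers raised, and the remaining 8 were neither. Of these, cluster 8 was fibroblast-like and cluster 10 smooth muscle or myofibroblast-like, and the others went unnamed. Cell cycle markers were high in the pluripotent-like cells too: the summed level of S phase markers was 15.9 and 15.2 UMIs per 10000 in them, against 12.6 to 14.8 in the cycling clusters. They were also the deepest, with medians of 28768 and 26078.5 UMIs per cell, and the part of depth in the results was not tested beyond the scalings given below.

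Levels are mean UMIs of a gene per 10000 UMIs of a cell, given for each library. Transcript 3' ends were counted, so levels do not depend on gene length. All log2 folds are on the scale of log2(level + 0.1), which understates the change of low genes, with the standard error (SE) of a limma fit over 22 profiles (11 clusters in each of 2 libraries). The clusters were drawn from the same cells that were then compared, so the p-values describe differences between these clusters only, and each count below is read against the share of all genes called.

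**Figure D1:**
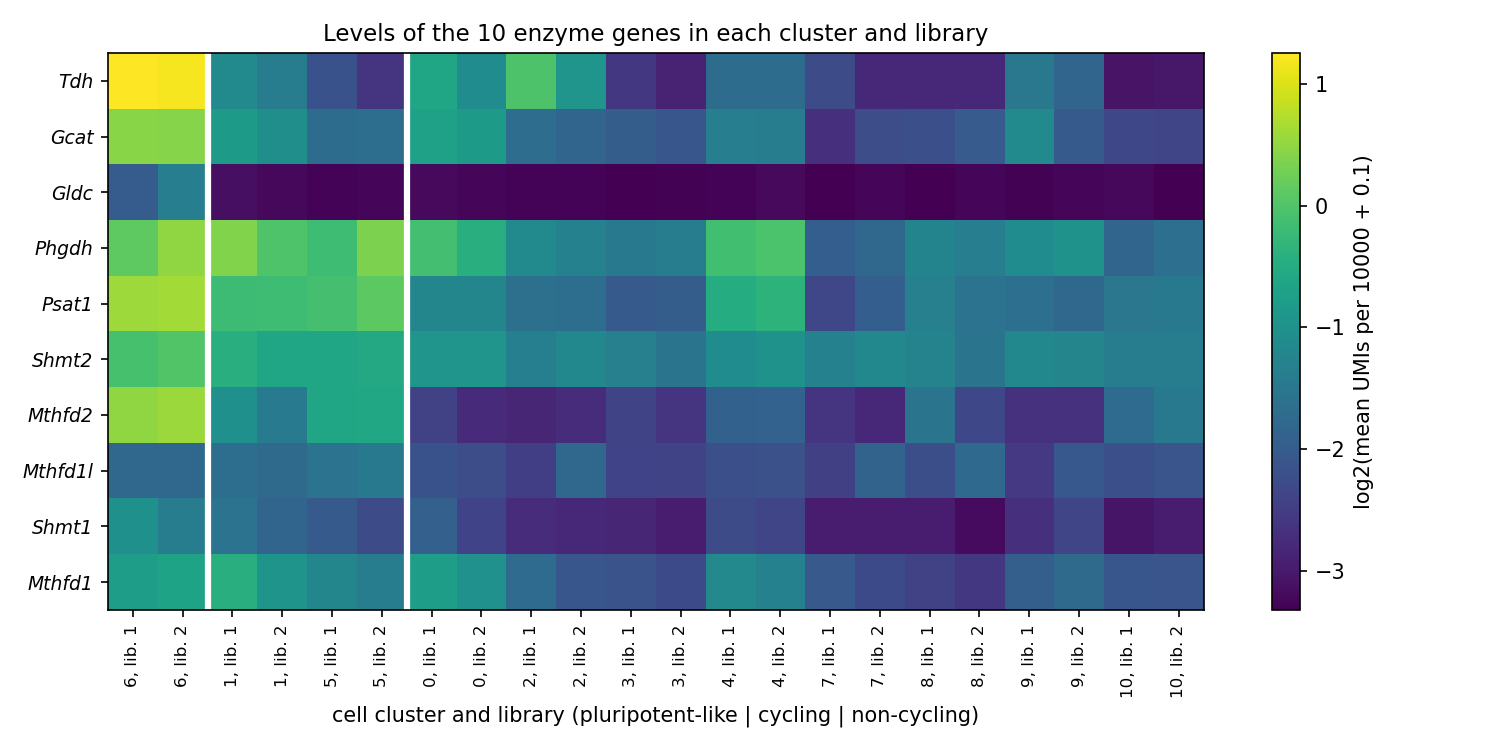
Level of each of the 10 genes (rows) in each cluster and library (columns), as log2(mean UMIs per 10000 + 0.1) by colour, with white lines between the pluripotent-like cluster, the 2 cycling clusters and the 8 non-cycling clusters. Tdh is brightest in cluster 6, at levels of 2.29 and 2.18 per 10000, and Gldc is dark in every other column.

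In pluripotent-like cells, 9 of 9 genes tested were higher than the mean of the 10 other clusters, where 34.4% of the 7131 genes tested were higher and 47.0% lower. Gldc, the remaining gene, lay under the minimum mean level of 0.1 for the test. Shmt1 had a mean of 0.108 over all cells but 0.0794 over the other clusters. It therefore passed the minimum only through the cells in which it is high, so its place among the 9 is no separate support. The median log2 fold of the 9 was 1.34, which is the fold of Shmt1, against -0.13 for all genes tested. Relative to the median of all genes, the folds of the 9 ran from 0.44 for Mthfd1l to 3.31 for Tdh. With UMIs per cell left unscaled, 4355 genes were higher and 1822 lower in place of 2454 and 3352, and the same 9 genes were higher. For 7 of the 10 genes, both pluripotent-like profiles lay above all 20 profiles of the other clusters. The share of all genes for which this holds was not taken, so the count only describes these genes.

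Tdh had the largest fold of the 9 genes tested. Its level in pluripotent-like cells was 2.29 in library 1 and 2.18 in library 2, and between 0.0186 and 0.883 in the other profiles. The groups did not overlap, and the mean was 10.4 times that of the other clusters. The log2 fold was 3.17 (SE 0.13, adjusted p = 2.2e-15), 3.04 in library 1 and 3.30 in library 2, which placed Tdh 30th by fold among the 7131 genes. Of all Tdh UMIs, 44.9% and 67.3% came from pluripotent-like cells, which held 7.81% and 16.0% of all UMIs. Those shares have 95% exact binomial intervals of 42.8 to 47.0% and 65.7 to 68.9%, which cover counting error only. A transcript annotated as Gm13929 has 97.1% identity to Tdh over 1125 bases and is not in the table, so reads of the pair could have been split or dropped.

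Outside pluripotent-like cells, Tdh was not evenly low. The next levels were in cluster 2 (led by Pcp4 and Nxpe2), at 0.883 and 0.422, and in cluster 0 (led by Acsbg1 and Cib2), at 0.558 and 0.367, and their ranges over the libraries overlapped. Cluster 1, which was cycling, followed with 0.357 and 0.283. The lowest level was in the smooth muscle or myofibroblast-like cluster 10, at 0.0186 and 0.0233, below the fibroblast-like cluster 8 at 0.0417 and 0.0439. Of the 10 neighbouring pairs in the order of the 11 clusters, 5 had ranges that did not overlap. Cluster 2 therefore had 38.6% and 19.4% of the Tdh level of pluripotent-like cells, while its summed level of pluripotency markers was 1.43 and 1.55 per 10000 against their 69.3 and 73.8. Pluripotent-like cells exceeded cluster 2 by a log2 fold of 1.70 (SE 0.17, adjusted p = 1.3e-08), where 33.4% of all genes were higher, and this was the smallest of the 10 single-cluster folds of Tdh. These single-cluster comparisons were added after the data were seen.

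Gcat, the next enzyme of threonine breakdown, was 1.26 and 1.25 in pluripotent-like cells and 0.0529 to 0.515 in the other profiles, without overlap. The mean was 5.43 times that of the other clusters, with a log2 fold of 2.14 (SE 0.14, adjusted p = 4.2e-12). After the pluripotent-like cells it was highest in cluster 0, at 0.515 and 0.462, and in cluster 1, at 0.461 and 0.386. Tdh was higher in cluster 2 than in cluster 1 in both libraries, whereas Gcat in cluster 2 was 0.210 and 0.182, below cluster 1. Gcat shares a run of 367 identical bases with an annotated Galr3 transcript, which is not in the table.

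Gldc was sparse throughout. It was 0.153 and 0.288 in pluripotent-like cells, where its 2 libraries differed most, and at most 0.0139 in any other profile, with some at 0. Pluripotent-like cells gave 66 of 106 Gldc UMIs in library 1 and 303 of 334 in library 2. Its pooled level was 19.5 times that of all other cells in library 1 (95% exact interval 13.0 to 29.6) and 51.2 times in library 2 (35.3 to 76.6). These intervals cover counting error, and no test was made of Gldc.

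The serine synthesis genes differed in how far pluripotent-like cells stood apart. Psat1, the aminotransferase, was 1.41 and 1.43 there and at most 0.971 elsewhere, with a log2 fold of 1.83 (SE 0.09, adjusted p = 5.7e-14). Phgdh, the dehydrogenase that opens the pathway, was 0.988 and 1.31 in pluripotent-like cells, and cluster 1 reached 1.202 in library 1 and cluster 5 reached 1.18 in library 2, so the groups overlapped. Against the mean of the other clusters the log2 fold of Phgdh was 1.18 (SE 0.12, adjusted p = 7.9e-09). By the mean of the libraries, cluster 4 (led by Perp and Krt19) was the highest non-cycling cluster for both genes, with Phgdh at 0.816 and 0.869 and Psat1 at 0.617 and 0.681, although Phgdh in cluster 0 overlapped it, at 0.830 and 0.644. By the same mean both genes were lowest in cluster 7 (led by Mmp11 and Dcn), where Psat1 was 0.0956 and 0.159 and overlapped cluster 3, at 0.147 and 0.155. Phgdh in cluster 7 was 0.158 and 0.189 and overlapped cluster 10, at 0.181 and 0.217. Phgdh has 21 annotated transcripts with 90.4 to 98.7% identity to it that are not in the table, so its counts are uncertain to the extent that reads were shared among them.

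Of the 3 mitochondrial folate enzymes, Mthfd2 had the largest fold. It was 1.31 and 1.38 in pluripotent-like cells, 0.264 to 0.567 in the cycling clusters and 0.0399 to 0.262 in the non-cycling clusters, and these 3 sets of profiles did not overlap. The log2 fold of Mthfd2 against all other clusters was 2.58 (SE 0.13, adjusted p = 7.3e-14), the 57th largest of the 7131 genes. Shmt2, which makes glycine from serine in mitochondria, was 0.853 and 0.907 in pluripotent-like cells, 0.543 to 0.640 in the cycling clusters and 0.240 to 0.426 in the others, again without overlap, and its log2 fold was 1.08 (SE 0.08, adjusted p = 1.5e-10). Shmt2 overlaps Ndufa4l2 on the opposite strand, and none of the sources used here says whether the counting used strand. Tdh, Gldc, Shmt1, Mthfd1 and Psat1 also overlap annotated genes on the opposite strand, and Mthfd1l and Mthfd2 overlap some on the same strand. Mthfd1l, the mitochondrial formyl-folate synthetase, was the exception. It was 0.194 and 0.192 in pluripotent-like cells and 0.200 to 0.261 in the cycling clusters, with rank 3 of the 11 clusters by the mean of the libraries. Its log2 fold of 0.30 (SE 0.13, adjusted p = 0.032) was the smallest of the 9, and the call was lost in 4 of 14 alternative analyses, with adjusted p up to 0.088. Among these 14, those with 1 library left out had no test and could not lose it.

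Of the cytosolic counterparts, Shmt1 had a larger fold than Shmt2, and Mthfd1 a smaller fold than Mthfd2 and a larger one than Mthfd1l, but these differences between genes were not tested. Shmt1 was 0.391 and 0.280 in pluripotent-like cells and 0.0103 to 0.237 elsewhere, with a log2 fold of 1.34 (SE 0.11, adjusted p = 2.5e-10). Shmt1 entered that test only through its level in pluripotent-like cells. Mthfd1, the trifunctional cytosolic enzyme, was 0.493 and 0.530 in pluripotent-like cells and by the mean of the libraries came next after cluster 1, which reached 0.638 in library 1 and 0.420 in library 2. The log2 fold of Mthfd1 was 0.98 (SE 0.10, adjusted p = 9.5e-09). Per transcript counted, the ratio of Mthfd2 to Mthfd1 was 2.65 and 2.60 in pluripotent-like cells, 1.67 and 2.01 in cluster 5, and 0.180 and 0.114 in cluster 0. It was not particular to pluripotent-like cells, since the fibroblast-like cluster had ratios of 2.82 and 1.48. The ratio of Shmt2 to Shmt1 was 2.18 and 3.24 in pluripotent-like cells and reached 11.2 and 23.4 in the fibroblast-like cluster, where Shmt1 was only 0.0279 and 0.0103.

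**Figure D2:**
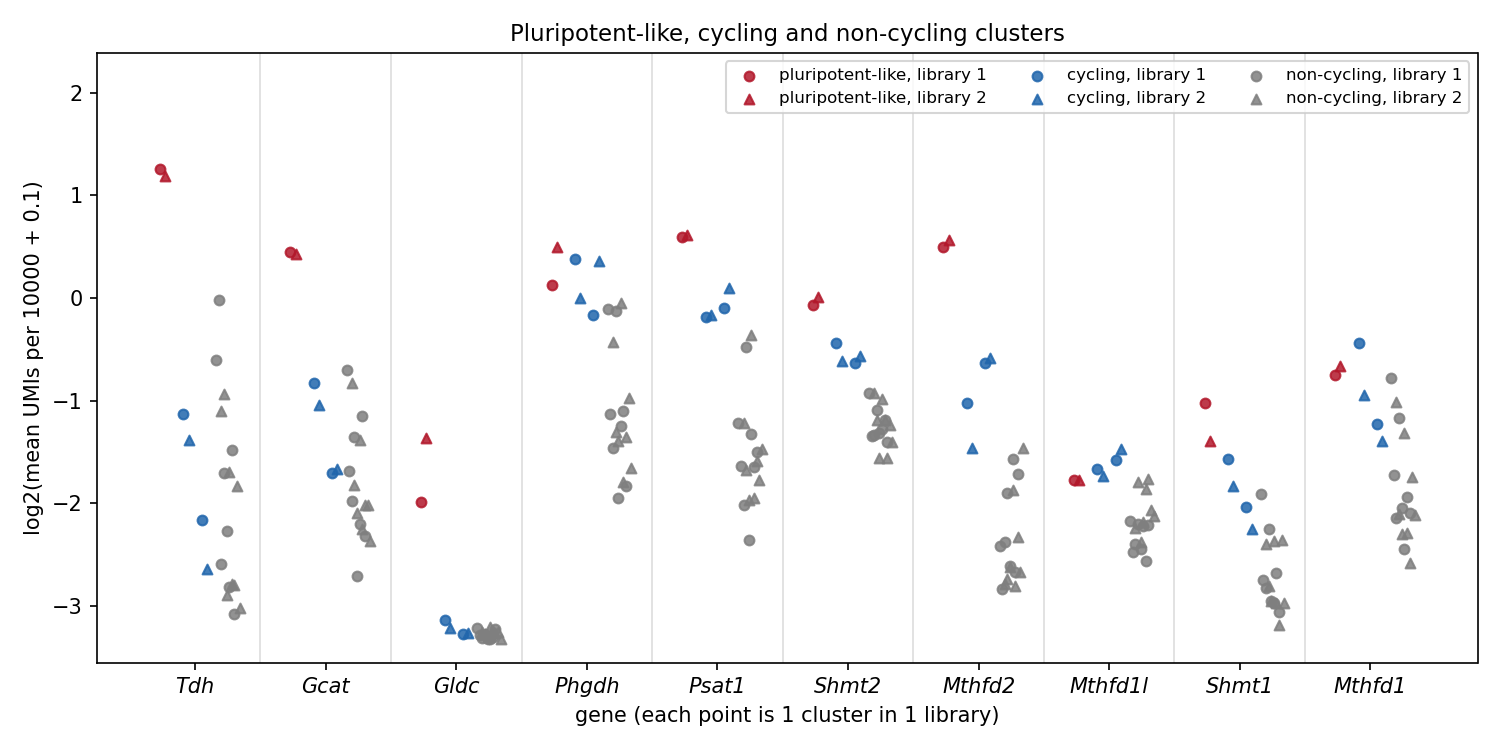
Levels of the 10 genes as log2(mean UMIs per 10000 + 0.1), where each point is 1 cluster in library 1 (circles) or library 2 (triangles), in red for pluripotent-like, blue for cycling and grey for non-cycling clusters. The red points stand above all others for 7 genes. For Phgdh and Mthfd1 the highest blue point lies above 1 red point or both, and for Mthfd1l both red points lie below all blue ones.

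Since folate-bound carbon is used for nucleotide synthesis, the cycling clusters 1 and 5 were compared with the 8 non-cycling clusters outside the pluripotent-like class. In cycling clusters 8 of the 9 genes tested were higher, against 33.1% of all genes higher and 27.6% lower. Psat1 and Mthfd2 had the largest log2 folds, 1.42 (SE 0.07, adjusted p = 7.5e-14) and 1.41 (SE 0.10, adjusted p = 5.0e-11), followed by Phgdh with 1.26 (SE 0.09, adjusted p = 7.9e-11). Gcat had the smallest fold of those called, 0.49 (SE 0.10, adjusted p = 0.00029). Tdh did not pass the test, at 0.15 (SE 0.10, 95% interval -0.05 to 0.35, adjusted p = 0.19). The direction for Tdh was not stable, since the fold was -0.20 with finer clusters (adjusted p = 0.011) and 0.46 with unscaled UMIs (adjusted p = 1.2e-05). The median log2 fold of the 9 genes was 0.79, and that of all genes 0.02. With unscaled UMIs the split of all genes moved from 2362 higher and 1971 lower to 5886 and 310, where 9 of the 9 genes were higher.

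Pluripotent-like cells were then compared with the cycling clusters alone, a comparison that shares profiles with both others. Here 7 of 9 genes were higher, against 26.9% of all genes higher and 46.6% lower. Shmt1 is among the 7, with the limit on its entry to the test given above. Tdh stood 3.05 higher on the log2 scale (SE 0.15, adjusted p = 1.4e-13) and Gcat 1.75 higher (SE 0.16, adjusted p = 3.0e-09). Mthfd2 followed with 1.45 (SE 0.15, adjusted p = 2.3e-08), then Shmt1 with 0.71 (SE 0.13), Psat1 with 0.69 (SE 0.10) and Shmt2 with 0.53 (SE 0.10), each with an adjusted p of 5.8e-05 or less. Mthfd1 was the least firm, at 0.29 (SE 0.12, adjusted p = 0.030), with 0.08 in library 1 and 0.50 in library 2, and lost its call in 7 of 13 alternatives, with adjusted p up to 0.32. Among these 13, those with 1 library left out had no test and could not lose it. Phgdh did not pass the test, at 0.17 (SE 0.14, 95% interval -0.12 to 0.45, adjusted p = 0.28), but passed it relative to the median of all genes (0.34, adjusted p = 0.031) and with unscaled UMIs (0.48, adjusted p = 0.0066). Mthfd1l was -0.16 (SE 0.15, 95% interval -0.47 to 0.15, adjusted p = 0.33) and turned to 0.02 relative to the median of all genes and 0.09 with unscaled UMIs, past the test under neither. The median log2 fold of all genes was -0.18, and with unscaled UMIs the split of all genes moved from 1918 higher and 3324 lower to 3002 and 2534.

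**Figure D3:**
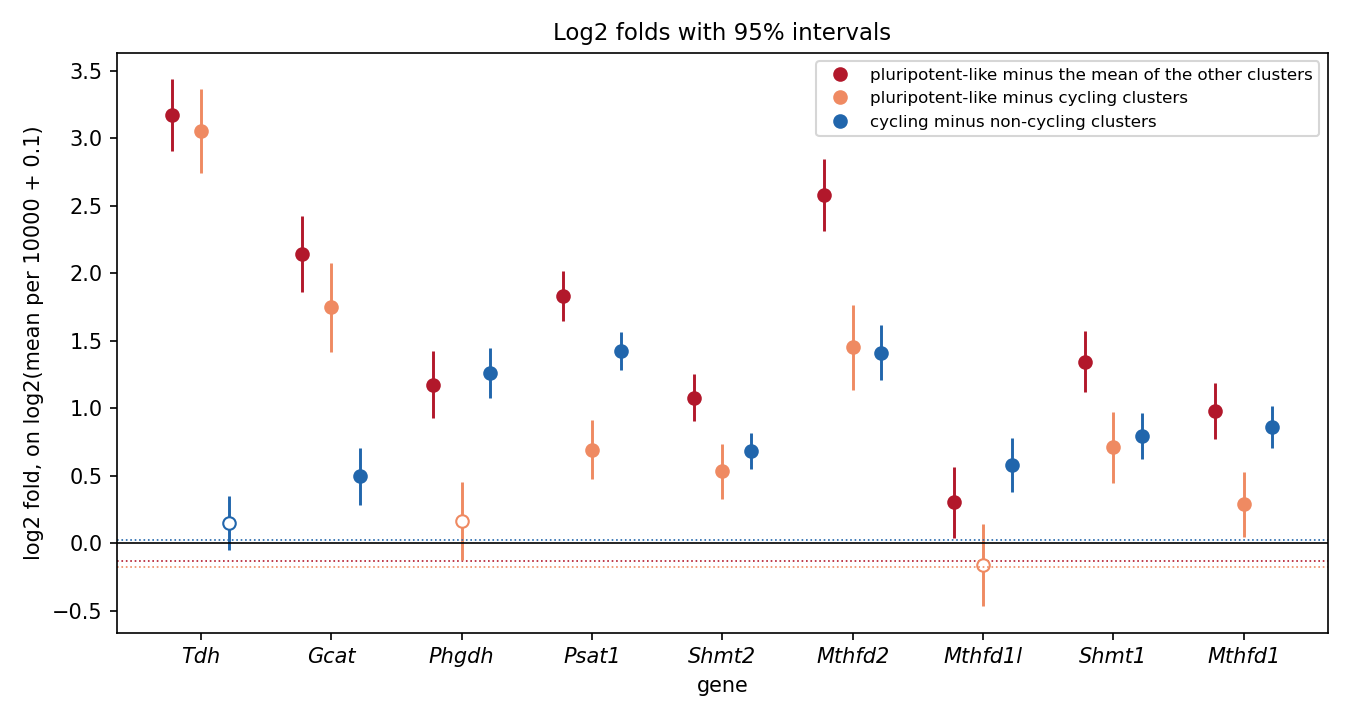
Log2 folds of the 9 genes tested with 95% intervals, for pluripotent-like cells against the mean of the other clusters (red), against cycling clusters (orange), and for cycling against non-cycling clusters (blue), with filled points where the adjusted p was under 0.05 and dotted lines at the median of all genes. Tdh has folds of 3.17 and 3.05 in the comparisons of pluripotent-like cells and 0.15 in that of cycling cells, whereas Phgdh has 1.18, 0.17 and 1.26.

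The level of each gene was also set beside the summed S phase markers over the 20 profiles outside the pluripotent-like cluster, which come from 2 libraries and share their depth. Pearson's r was 0.70 to 0.90 for the 7 tested genes other than Tdh and Gcat, with Shmt2 highest, and 0.50 for Gcat and 0.16 for Tdh. With the summed G2 and M phase markers it was much the same, 0.69 to 0.91 for those 7 genes, 0.46 for Gcat and 0.14 for Tdh. Over the same profiles Tdh had r = 0.70 with Gcat and r = -0.27 with Mthfd2, while Mthfd2 had r = 0.80 with Psat1 and Shmt1 had r = 0.95 with Mthfd1. The genes outside the pathway lists with profiles most like Tdh, over all 22 profiles, were Apobec3, Park7, 1190007I07Rik, Nle1 and Hk2, with r from 0.90 to 0.92. Over the 20 profiles without the pluripotent-like cluster their r was 0.76 to 0.84. Those most like Mthfd2 over all 22 profiles were Anapc15, Mrpl57, Banf1, Nup50 and Sf3b5, with r from 0.95 to 0.96, and 0.92 to 0.94 over the 20. No gene was named for both.

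Single cells were compared after thinning each to 4000 UMIs, so that all cells had equal depth. Tdh then had a UMI in 61.6% of pluripotent-like cells in library 1 (95% exact interval 53.2 to 69.6%) and in 53.8% in library 2 (48.8 to 58.8%), and without thinning in 97.9% and 90.3%. In the fibroblast-like cluster, taken as cells that should lack it, the thinned share was 2.03% and 0.633%, and 4.47% and 5.06% without thinning, at median depths of 13497.5 and 11381 UMIs. Cluster 2 had thinned shares of 26.5% and 14.4%, and cluster 0 of 18.8% and 12.3%, above the fibroblast-like cluster in both libraries. The share with a Gcat UMI in pluripotent-like cells was 41.8% and 36.0%, that for Mthfd2 was 37.7% and 39.5%, and that for Psat1 was 36.3% and 34.9%. Both Tdh and Gcat had a UMI in 26.0% and 20.7% of the cells of the pluripotent-like cluster, against at most 3.79% in any other compared cluster. Pluripotent-like cells had UMIs of 3 of the 10 genes in the median, and the other compared clusters of 0 or 1. For neither measure were the clusters left out of the comparisons counted.

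The spread among pluripotent-like cells was also taken at equal depth. At 4000 UMIs the variance of Tdh over cells was 1.26 and 1.22 times its mean, where counting alone would give a ratio of about 1, and the highest cell had 7 UMIs. Over all 10 genes and both libraries the ratio ran from 0.783 for Gcat to 1.37 for Shmt1. At means of 0.0714 to 1.03 UMIs per cell this ratio stays near 1 over a wide range of true spread, so it does not show that the levels were even. Tdh was at 0 in 38.4% and 46.2% of the thinned cells.

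**Figure D4:**
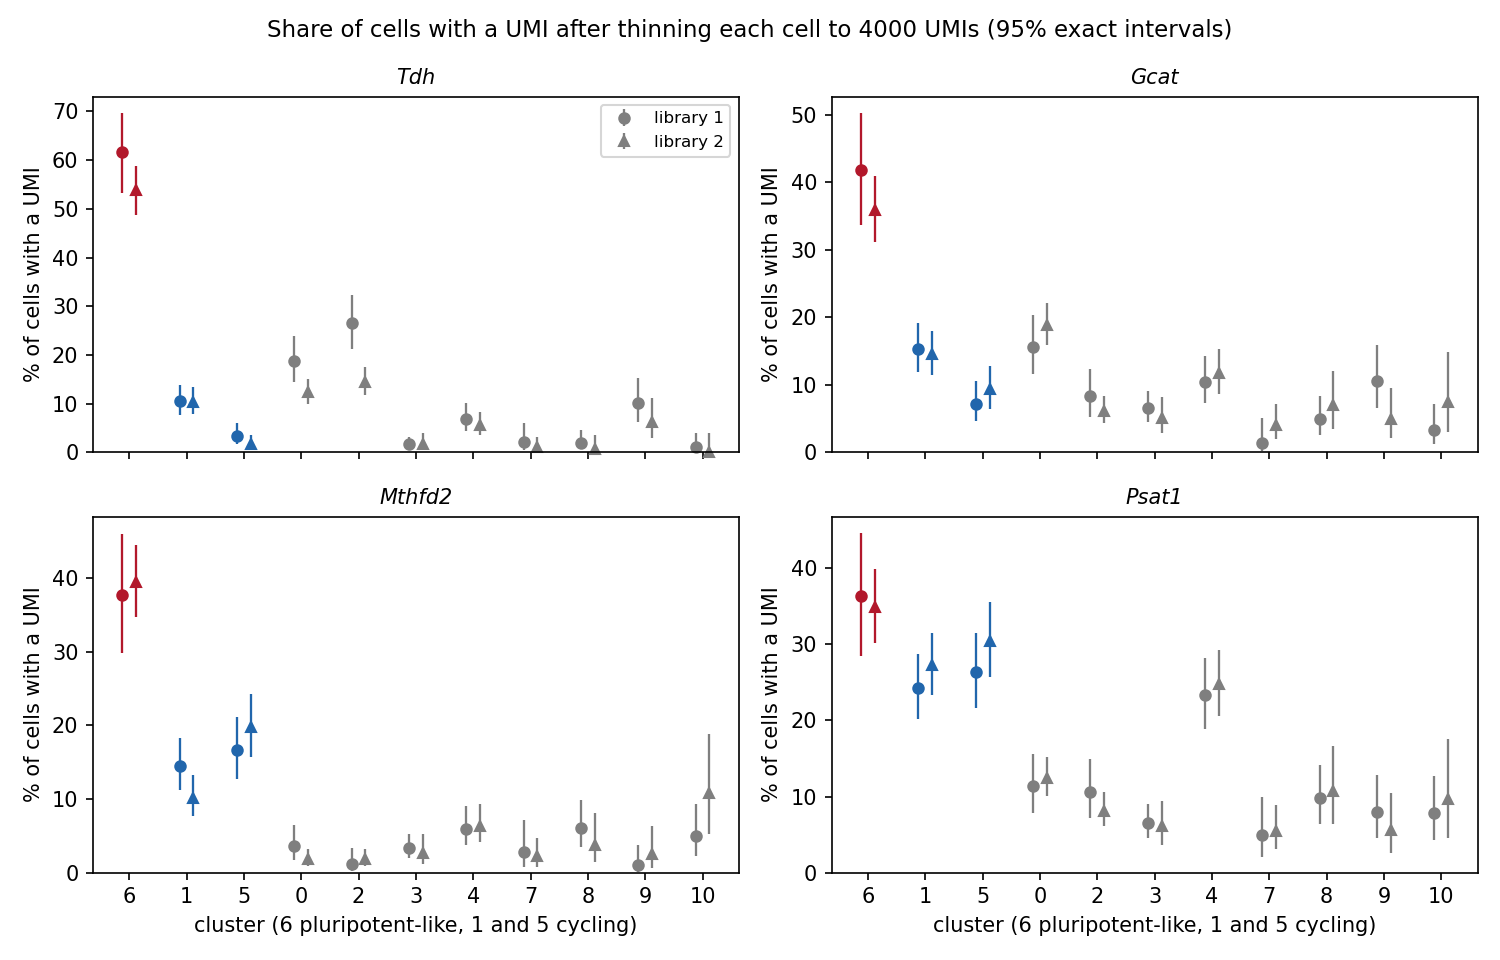
Share of cells with at least 1 UMI of Tdh, Gcat, Mthfd2 or Psat1 after thinning each cell to 4000 UMIs, in percent with exact 95% intervals, by cluster, for library 1 (circles) and library 2 (triangles). Cluster 6 (red) is highest in all panels, and for Psat1 the cycling clusters (blue) and cluster 4 come near it, while for Tdh the next are clusters 2 and 0.

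The wider pathway lists held 53 further genes, of which 51 were in the table and 29 passed the minimum level. In pluripotent-like cells 19 of the 29 were higher, 9 were lower and 1 was not called, with a median log2 fold of 0.47 against -0.13 for all genes. The 19 include Fpgs, which passed the minimum level only through pluripotent-like cells. Of all genes tested, 34.4% were higher and 47.0% lower. The higher ones included genes next to the 10 in the pathway. Psph, the last step of serine synthesis, was 0.931 and 0.871 in pluripotent-like cells against at most 0.347 elsewhere, with a log2 fold of 1.80 (SE 0.10, adjusted p = 2.0e-13). Gart, which uses formyl-folate in purine synthesis, was 1.05 and 1.06 against at most 0.478 (1.74, SE 0.08, adjusted p = 1.7e-14). Slc7a5, a subunit of a transporter of large neutral amino acids, was 0.649 and 0.598 against at most 0.271 (1.75, SE 0.08, adjusted p = 1.4e-14).

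Of the 6 tested genes of the amino acid response governed by ATF4, 4 were higher and 1 was lower, where 34.4% of all genes were higher and 47.0% lower. Asns, the asparagine synthetase, was 1.80 and 2.01 in pluripotent-like cells against at most 0.513 elsewhere, with a log2 fold of 2.48 (SE 0.13, adjusted p = 9.3e-14). Atf4 itself, the transcription factor, was 2.13 and 2.04 against at most 1.12 (1.35, SE 0.08, adjusted p = 2.6e-12). In the cycling clusters 1 gene of this list was higher and 4 were lower than in non-cycling clusters. Of all genes, 33.1% were higher and 27.6% lower in that comparison, where Atf4 was at -0.03 (SE 0.06, adjusted p = 0.66). With only 6 genes, neither split was tested against the share of all genes. Myc fell by 0.59 on the log2 scale (SE 0.11, adjusted p = 3.4e-05) in pluripotent-like cells, with levels of 0.0592 and 0.0334 against 0.0448 to 0.240 elsewhere, which overlap. Myc is also a factor of the reprogramming cassette, and whether the 3' tags tell the transgene from the gene was not tested. Mycn lay under the minimum level over all cells but was 0.442 and 0.450 in pluripotent-like cells and at most 0.0273 elsewhere.

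The remaining genes named moved in both directions. Ggh, which removes glutamates from folates, fell by 1.30 (SE 0.08, adjusted p = 1.4e-12), from 0.195 to 0.541 in the other profiles to 0.0904 and 0.0869, while Fpgs, which adds them, rose by 1.37 (SE 0.09, adjusted p = 1.2e-11). Fpgs had a mean of 0.110 over all cells but 0.0871 over the other clusters. It therefore passed the minimum of 0.1 only through the cells in which it is high. Ahcyl1, a relative of S-adenosylhomocysteine hydrolase, fell by 1.23 (SE 0.07, adjusted p = 1.7e-12). Of the glycine cleavage system, Gcsh rose by 0.55 (SE 0.08, adjusted p = 3.5e-06) and Dld, which other dehydrogenase complexes share, fell by 0.49 (SE 0.08, adjusted p = 1.3e-05). Tars (threonyl-tRNA synthetase) was higher by 1.22 (SE 0.11, adjusted p = 1.0e-09), Cth by 0.68 (SE 0.11, adjusted p = 6.0e-06), Mat2a by 0.48 (SE 0.10, adjusted p = 0.00013) and Atic by 0.36 (SE 0.12, adjusted p = 0.0072), and Slc1a4, a transporter of neutral amino acids, fell by 0.64 (SE 0.11, adjusted p = 1.4e-05). Tyms, the thymidylate synthase, was chosen after its values were seen because it is used in S phase. It was higher in pluripotent-like cells than in the other clusters by 1.24 (SE 0.09, adjusted p = 7.4e-11), and in cycling against non-cycling clusters its log2 fold was 2.08 (SE 0.07, adjusted p = 1.6e-16). In pluripotent-like against cycling cells Tyms fell by 0.42 (SE 0.11, adjusted p = 0.0017).

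Because most of the 10 genes were higher together in pluripotent-like cells, their promoters were read from RefSeq (GRCm38.p6), where the genes other than Tdh, 9 of the 10, had 10 windows from 250 bases before to 50 bases after a start site, which is position 0 here. Motifs were searched on both strands among 32851 such windows. The CCAAT box (CCAAT) was present in 6 of the 10 windows and in 37.4% of all, and Mthfd2 and Psat1 each had 3 matches, a number reached by 3.37% of all windows. The palindromic core of the NRF1 motif (GCGC on both sides of any 2 bases) was present in the windows of Shmt2 (positions -19 to -10) and Mthfd2 (positions 35 to 44) and in 6.23% of all windows. The E-box (CACGTG), which was searched as a site of Myc, was present in Gcat alone among the 10 windows (positions 2 to 7) and in 7.15% of all. The ATF4 element (TGATGNAA) was present in none of the 10 windows and in 3.97% of all, while Asns held it at positions -23 to -16. The 120 bases before the start site follow for Mthfd2 and Psat1, with their CCAAT boxes in capitals, for Shmt2 with the NRF1 motif in capitals, and for Asns with the ATF4 element in capitals, all on the minus strand, at chr6:83317605-83317724, chr19:15925060-15925179, chr10:127522445-127522564 and chr6:7693210-7693329. A match is a description of the sequence and not evidence of binding.
Mthfd2: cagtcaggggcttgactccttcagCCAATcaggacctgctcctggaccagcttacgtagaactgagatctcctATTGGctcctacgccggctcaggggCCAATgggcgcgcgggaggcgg
Psat1: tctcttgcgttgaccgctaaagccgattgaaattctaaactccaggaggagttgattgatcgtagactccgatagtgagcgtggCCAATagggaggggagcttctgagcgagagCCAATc
Shmt2: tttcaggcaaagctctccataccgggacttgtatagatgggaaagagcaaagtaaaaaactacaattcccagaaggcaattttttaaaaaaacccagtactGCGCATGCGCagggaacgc
Asns: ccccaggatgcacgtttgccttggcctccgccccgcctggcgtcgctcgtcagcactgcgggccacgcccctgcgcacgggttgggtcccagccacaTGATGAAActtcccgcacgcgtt
The remaining match of Psat1 lies after its start site, at positions 23 to 27, and the NRF1 core of Mthfd2 lies there too, both outside the bases shown.

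Within pluripotent-like cells the libraries were close in the levels of most of these genes but differed for Gldc, Phgdh and Shmt1. The log2 ratio of library 2 to library 1, on the scale of log2(level + 0.1), ran from -0.37 for Shmt1 to 0.62 for Gldc. The ratio was 0.37 for Phgdh, -0.07 for Tdh, -0.02 for Gcat, 0.07 for Mthfd2 and 0.02 for Psat1. For Gldc, Phgdh and Shmt1 the intervals of the pooled levels, which cover counting error only, did not overlap between the libraries. The largest differences between libraries outside that cluster were -0.91 for Tdh in cluster 2 and -0.87 for Gcat in cluster 9. With 1 library on each side these ratios have no test.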

How the data were processed

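Per the labels and methods, the authors counted reads with Cell Ranger (version 2.1.1) on mm10, kept cells by detected genes and mitochondrial share, and deposited natural log values, ln(1 + x), where x is the count of a gene per 10000 counts of its cell. This was checked: on the linear scale each of the 7023 cells summed to 10000, and 100% of nonzero values were whole multiples of 1 UMI within 0.01. The counts are taken as UMIs. They gave 54145377 and 64654306 UMIs for libraries 1 and 2, and 4753 to 60990 per cell. None of the sources used here says whether doublets had been taken out. No doublet caller was run, and the 5% of cells with the most UMIs were left out as an alternative.

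The 10 genes and the wider lists were chosen with earlier results of these data known. Both libraries were clustered on 2000 variable genes (scanpy 1.11.5), after removal of 64 genes of the lists and the reprogramming factors, with 30 principal components, 15 neighbours and Leiden resolution 1 (leidenalg 0.10.2). Clusters took a class from 137 markers where at least 3 and 50% were 2-fold raised and 1 of its markers was among the 10 leading genes, a rule set after the clusters were seen.

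Mean values per 10000 of each cluster and library, as log2(mean + 0.1), were fitted with limma 3.58.1 (R 4.3.3) with cluster and library as terms (20.7 degrees of freedom), over 7131 genes with a mean of at least 0.1. P-values were two-sided and adjusted by Benjamini-Hochberg over all these genes, with a threshold of 0.05. The deposited unit is a log value and the fit used means per 10000, so no count model was run. The UMIs recovered from the steps were used for intervals, thinning and summed profiles. On simulated data for pluripotent-like cells against the other clusters, over 7131 genes, 94% of 2-fold and 100% of 4-fold changes were recovered. Of the calls, 3.48% were unchanged genes. All simulated clusters of a library had the same mean apart from 200 changed genes, unlike the real clusters, so these rates may not hold for them. Named beside the 10 genes were, of each wider list, the 2 genes past the threshold with the largest absolute fold in pluripotent-like cells, Atf4, Myc and Mycn, and the 5 genes most correlated with Tdh and with Mthfd2. Transcripts were compared with BLAST 2.17.0. Alternatives changed the pseudocount, filter, scaling, centring, weighting, library term, clustering and libraries used. Any other gene of these lists that is named was chosen after its values were seen. The values of 1 gene of the wider lists are not reported here.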

Additional observations from a re-analysis of the deposited data

How the results depend on the processing

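All 9 genes tested kept a positive log2 fold in pluripotent-like cells against other clusters under every alternative run, and only Mthfd1l lost its call, with no filter beyond 1 UMI, with no library term, at Leiden resolution 2 and with 4000 variable genes. With a minimum mean of 0.5 only 2 of the genes were tested: both were higher in pluripotent-like cells and both in cycling clusters, and 1 was higher in pluripotent-like against cycling cells, because fewer genes were tested. At Leiden resolution 2, 1 gene was lower in cycling clusters, Tdh with a fold of -0.20. The fold of Mthfd1l against cycling clusters turned to 0.016 with folds centred on the median and to 0.0877 with unscaled UMIs, and the cause was not tested. Of 366 fold values under these alternatives, 348 were counted as unchanged, 11 lost a call, 4 gained one and 3 reversed. Unchanged means the same direction and, where a test was made, the same side of the threshold. Values with 1 library left out had no test, so only their direction was judged. With 1 library left out, the fold of Tdh against other clusters was 3.04 to 3.30, with no test. For all genes in that comparison, 5137 were higher and 5096 lower with no filter, and 881 and 1008 with a minimum mean of 0.5, as more or fewer genes were tested (17387 and 2201). With a minimum mean of 0.5, 939 genes were higher and 669 lower in cycling clusters, and 678 and 1055 in pluripotent-like against cycling cells, for which 4077 were higher with no filter. Library was a term of the fits, so clusters were compared within libraries, and no other pairing exists in a single group. Depth limits Gldc most, with 106 and 334 UMIs in all. Both libraries come from 1 day, and no untreated cells or finished stem cell line were analysed here.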

Other observations

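The 144 cells in clusters with under 30 cells in a library were left out of the comparisons. Of these, 67 cells of library 1 and 4 of library 2 formed an epithelial-like cluster led by Gpx2, Epcam and Ly6d, with 10 epithelial markers raised. In the 67 cells the level of Phgdh was 1.74 and that of Mthfd1 was 0.909, both above either value in pluripotent-like cells, while Tdh was 0.407, Mthfd2 0.300 and Psat1 0.605, all below. Gcat was 0.759 and Gldc 0.0836, above every compared cluster outside the pluripotent-like one. With nearly all of these cells in 1 library, they were not tested.

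A few genes of the wider lists that lay under the minimum level, chosen after their values were seen, were found mostly in pluripotent-like cells. Folr1, a folate receptor, was 0.497 and 0.606 there and at most 0.126 in any other profile. Amt, the aminomethyltransferase of the glycine cleavage system and partner of Gldc, was 0.255 and 0.191 against at most 0.0135. Chac1, which degrades glutathione and belongs to the ATF4 response, was 0.248 and 0.138 against at most 0.0306.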
